A study of Mus musculus with 12 samples.

Results

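The 34 genes described here are antiviral genes whose transcription rises when a cell receives type I interferon. They were listed by symbol, with earlier results of these data known. In the table of counts, all 34 symbols were found among its 24421 mouse genes. All 34 were also among the 12981 genes with enough counts to be tested. Type I interferons bind the receptor chains Ifnar1 and Ifnar2, and the kinases Jak1 and Tyk2 then activate a complex, ISGF3, which holds Stat2 and Irf9 and binds the interferon-stimulated response element (ISRE) in promoters. Interferon gamma uses the other receptor, made of Ifngr1 and Ifngr2, and acts mainly through the gamma-activated site (GAS). Many genes respond to both interferons. In macrophages the proteins of these genes detect, bind or degrade viral nucleic acid, block viral entry and release, or tune the response.

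The RNA came from mouse tibialis anterior, a muscle of the lower leg, that had been injured with notexin, a toxin from snake venom that kills muscle fibres. Live cells positive for CD45 and CD11B and negative for LY6G/SIGLECF were sorted on day 5 after injury, and the labels call them macrophages. The Ifngr1 genotype was wt/null or else null/null, so every animal carried at least 1 null allele and none was a full wild type. After injury they were injected daily in the peritoneum with a TNF-neutralizing antibody (anti-TNF) or an isotype control. Each genotype was combined with each antibody, which gives 4 groups, named by both (wt/null isotype and so on), with 3 libraries in each. Age, sex and strain are not stated in the labels, and neither is whether each library was a separate mouse, so p-values below measure the spread between libraries. The study's stated aim was the part that IFNγ plays in muscle regeneration and fibrosis.

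Each library held 23.2 to 29.9 M counts (M, mega). The unit of level is CPM, a gene's counts for each M of a library's TMM-scaled total, and numbers 1 to 3 within a group only name the libraries. Ifngr1, the targeted gene, was at 226 to 250 CPM in the 6 wt/null libraries and at 83.3 to 119 CPM in the 6 null/null libraries, so each library fell on the side its label gives. Summed CPM of 11 macrophage markers was 31606 to 39726 in all 12 libraries. The libraries titled 40C1 (wt/null anti-TNF 2) and 40C2 (null/null anti-TNF 1) stood apart: 8 dendritic cell markers summed to 542 and 486 CPM there and to 183 to 264 CPM in the other 10, and 5 monocyte markers to 1062 and 1015 against 401 to 702 CPM. The 4 fibroblast markers ran the other way, at 326 and 239 against 503 to 1240 CPM. In the main fit, counts of members lower, higher or past a threshold, and medians over members, are therefore given with and without these libraries. Counts of intervals and ranks, most counts of groups without overlap, and the fit with title blocks use all 12.

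The ISRE is the element through which ISGF3 acts on promoters, so windows from 250 bases before to 50 bases after each annotated start (RefSeq, GRCm38.p6) were searched on both strands. The ISRE core was spelled GAAANNGAAA and the GAS core TTCNNNGAA, and matches may overlap one another. Windows were listed for 25 of the 34 members. An ISRE core was present for 13 of the 25 (52%) and for 3.99% of 27025 genes with a window of the same length. At least 2 ISRE cores within 1 window occurred for 7 members (28%), against 0.266% of genes. The GAS core was found for 7 members (28%) and 9.55% of genes, and both cores for 4 members (16%) and 0.614% of genes. Of the 11 Gbp and 12 IRG genes listed, GTPase families strongly induced by interferon gamma, 13 had a window. Among these 13, 11 (84.6%) held the ISRE core and 7 (53.8%) the GAS core. A match is a description of letters, not a measured binding site. The stretches around the matches are printed below, 5′ to 3′ on the gene's strand with ISRE matches in capitals, for a member with the most matches in each of 6 role groups (Ifit3 tied with Ifit1 and Ifitm3 with Bst2, and the first on the list was taken), because they show how the same short block recurs, singly, spaced or overlapping, upstream of genes with different jobs.
Isg15: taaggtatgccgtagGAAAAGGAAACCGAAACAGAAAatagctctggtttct
Ifit1: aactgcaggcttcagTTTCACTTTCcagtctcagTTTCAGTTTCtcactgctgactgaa
Oas1a: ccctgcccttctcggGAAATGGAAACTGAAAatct
Ddx60: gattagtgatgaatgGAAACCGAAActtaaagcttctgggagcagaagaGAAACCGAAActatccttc
Bst2: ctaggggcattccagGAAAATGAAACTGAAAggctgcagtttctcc
Rsad2: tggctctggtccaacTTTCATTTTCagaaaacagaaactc

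The Isg15 stretch, chr4:156200860-156200911 on the minus strand, held 3 matches that overlap one another. Oas1a (chr5:120907526-120907560, minus) and Bst2 (chr8:71537572-71537617, minus) each held 2 overlapping matches. In Ifit1 (chr19:34640770-34640828, plus) and Ddx60 (chr8:61928019-61928086, plus) the 2 matches were separate, and in Ifit1 they lay on the opposite strand. Rsad2 (chr12:26456548-26456587, minus) held 1 match, also on the opposite strand. Members whose windows held neither core were Herc6, Oasl1, Oasl2, Cmpk2, Dtx3l, Sp100, Xaf1, Ifi44 and Samd9l.

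No member changed with genotype or with antibody at the threshold used for all genes. With edgeR's quasi-likelihood test and Benjamini-Hochberg adjustment over 12981 genes, 0 of 34 members had an adjusted p below 0.05 in any of 8 comparisons. The members' lowest adjusted p was 0.683 (Ifi44, antibody averaged over genotypes); in the 3 genotype comparisons it was 0.9998 for every member under isotype, 0.9997 under anti-TNF and 0.9996 averaged. The background was as thin: 0.0077% of genes, a single gene (Ifngr1 itself), passed in each of 4 comparisons (genotype under isotype, genotype under anti-TNF, genotype averaged over the antibodies, and both perturbations against neither), and 0% passed for the antibody in wt/null, in null/null or averaged, or for the interaction. DESeq2 and limma voom also called 0 members in every comparison. At an unadjusted p below 0.05, 2 members passed for genotype under anti-TNF, where 1.98% of genes did, and 0 members passed in the other 7 comparisons. The shares of all genes at that level were 1.80% for genotype under isotype, 2.46% for genotype averaged, 4.48% for the antibody in wt/null, 3.48% for the antibody in null/null, 7.31% for the antibody averaged, 1.51% for the interaction and 2.13% for both against neither.

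What the members did show was a level that moved from library to library as a block. In wt/null anti-TNF 2 (40C1), 30 of 34 members had their highest level of the 12 libraries, and all 34 were among their 3 highest. The share of all tested genes with their highest or lowest level in a given library is not given here, so these counts have no background beside them. Null/null anti-TNF 2 held the lowest value of 27 members, and there and in null/null isotype 1 all 34 were among their 3 lowest. Fibroblast markers summed to 1240 CPM in the former, the highest of the 12 libraries, and neutrophil markers to 43.7 CPM in the latter, against at most 5.68 in the others. The part of either in the members' low levels was not tested. Each gene's log2 CPM was centred on its mean over 12 libraries and the 34 centred values were averaged. That average was 0.04, -0.27 and 0.00 in wt/null isotype 1 to 3, and -0.07, 0.82 and 0.12 in wt/null given anti-TNF. It was -0.51, -0.09 and 0.40 in null/null given isotype, and 0.37, -0.68 and -0.13 in null/null given anti-TNF. In bulk RNA, fewer cells of a type and less RNA per cell cannot be told apart. The ranges of the 4 groups overlapped, and 3 of the groups each held 1 library well above its other two. In 2 of these that library was 40C1 or 40C2, and in null/null isotype it was replicate 3. Dendritic cell markers summed in that replicate to 260 CPM, near the top of the 183 to 264 CPM seen outside 40C1 and 40C2. Monocyte markers summed there to 401 CPM, the lowest of the 12 libraries, and macrophage markers to 39726 CPM, the highest. The part of cell mix in the members' level there was not tested. Scaling and centring hold the median centred value of all tested genes near 0, and over the same libraries it stayed between 0.0018 and 0.0115.

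**Figure D1:**
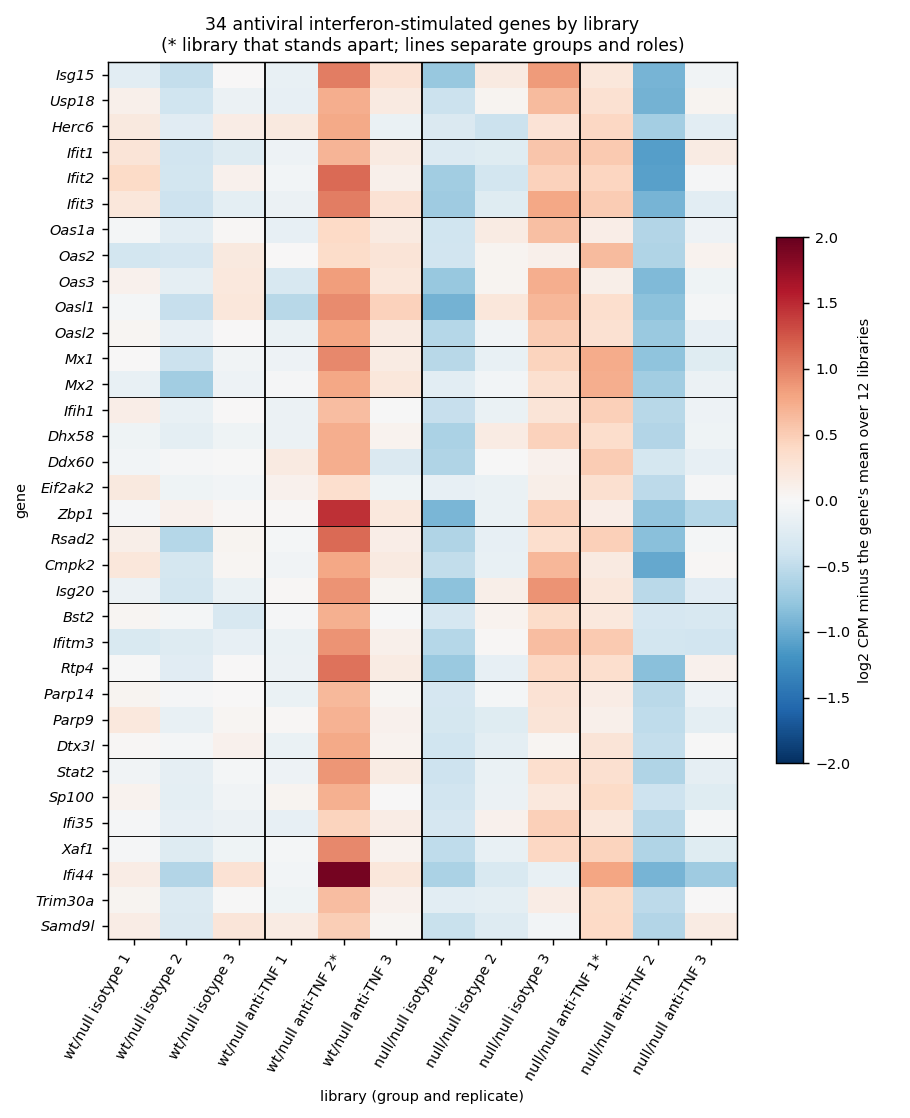
Heat map of the 34 members (vertical axis, in role groups) in the 12 libraries (horizontal axis), coloured by log2 CPM minus the gene's mean over 12 libraries. The column of wt/null anti-TNF 2 is red throughout, and those of null/null isotype 1 and replicate 2 of null/null anti-TNF are blue throughout, across all role groups.

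Within a group the members were more variable than most genes. The SD of log2 CPM within groups had a median of 0.45 over the members, from 0.26 for Eif2ak2 to 0.76 for Ifi44, against 0.19 over all tested genes, and all 34 members lay above that all-gene median. Without 40C1 and 40C2 the members' median was 0.34 (from 0.19 for Sp100 to 0.64 for Oasl1) against 0.17, and again all 34 lay above it. Set against the other 2 libraries of its group, wt/null anti-TNF 2 was higher for 34 of 34 members (median 0.76 on the log2 scale), null/null isotype 3 for 34 (0.71) and null/null anti-TNF 1 for 34 (0.74). Of all tested genes, 50.9%, 49.5% and 50.2% were higher in these 3 libraries. On the same measure, wt/null anti-TNF 1 (median -0.54), null/null anti-TNF 2 (-0.77) and null/null isotype 1 (-0.64) were lower for all 34 members. The libraries they were set against included 40C1 for the first and 40C2 for the second. Over all 12 libraries, wt/null anti-TNF 1 was among the 3 lowest for 4 members, and each of the null/null libraries named for 34.

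**Figure D2:**
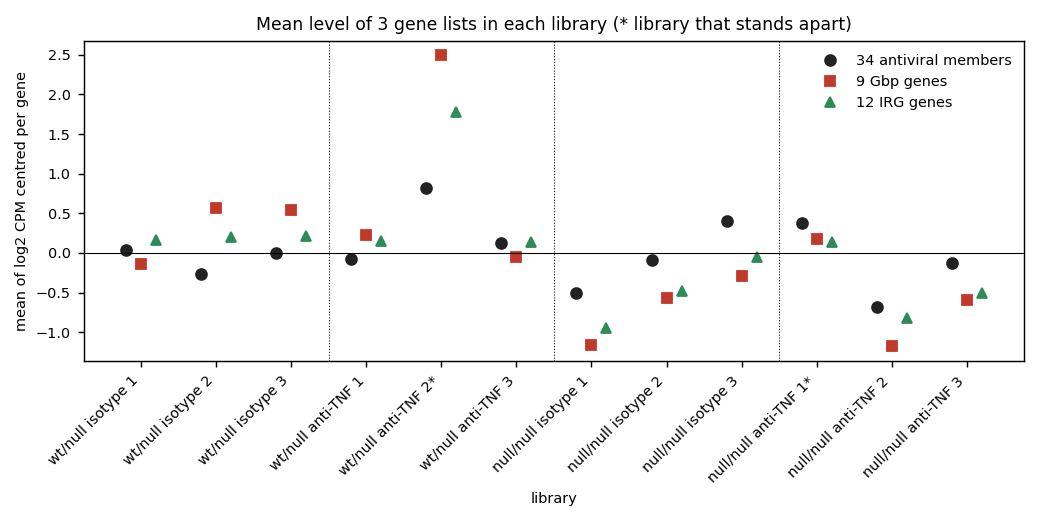
Mean of centred log2 CPM (vertical axis) in each library (horizontal axis) for the 34 members, 9 Gbp genes and 12 IRG genes. The members range from -0.68 to 0.82; in wt/null anti-TNF 2 the Gbp mean is 2.49 and the IRG mean 1.78, and in null/null isotype 3 the members are at 0.40 while the Gbp and IRG means are at -0.29 and -0.05.

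The genotype difference, null/null minus wt/null, is the comparison that asks whether loss of the second Ifngr1 allele moved these genes. Under isotype antibody 14 of 34 members were lower and 20 higher, with a median log2 fold change of 0.07. Under anti-TNF all 34 were lower, from -1.06 for Zbp1 to -0.11 for Oas2, with a median of -0.40. Averaged over both antibodies 33 of 34 were lower, with a median of -0.17. Over all tested genes the median was close to 0 in each comparison. Without 40C1 and 40C2 the counts of lower members were 14, 34 and 33 and the medians 0.07, -0.40 and -0.17. The 2 libraries belong to opposite genotypes within anti-TNF, and both were high. The agreement of the 34 signs is not 34 observations, because the members moved together by library. Leaving out wt/null anti-TNF 2 alone brought the median under anti-TNF to -0.09 and the averaged one to -0.01. Leaving out null/null anti-TNF 2 brought them to -0.21 and -0.07, and leaving out null/null anti-TNF 1 to -0.73 and -0.32. The averaged median was also -0.09 without null/null isotype 1 and -0.30 without null/null isotype 3. Under isotype the median changed sign, to -0.19 without null/null isotype 3 and to -0.02 without wt/null isotype 2, and rose to 0.24 without null/null isotype 1. The interaction, the genotype difference under anti-TNF minus that under isotype, was below 0 for 33 of 34 members with a median of -0.53 (32 and -0.49 without 40C1 and 40C2). Leaving out wt/null anti-TNF 2 gave -0.18, null/null isotype 3 gave -0.21 and null/null anti-TNF 2 gave -0.29, and 0 members passed its test.

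**Figure D3:**
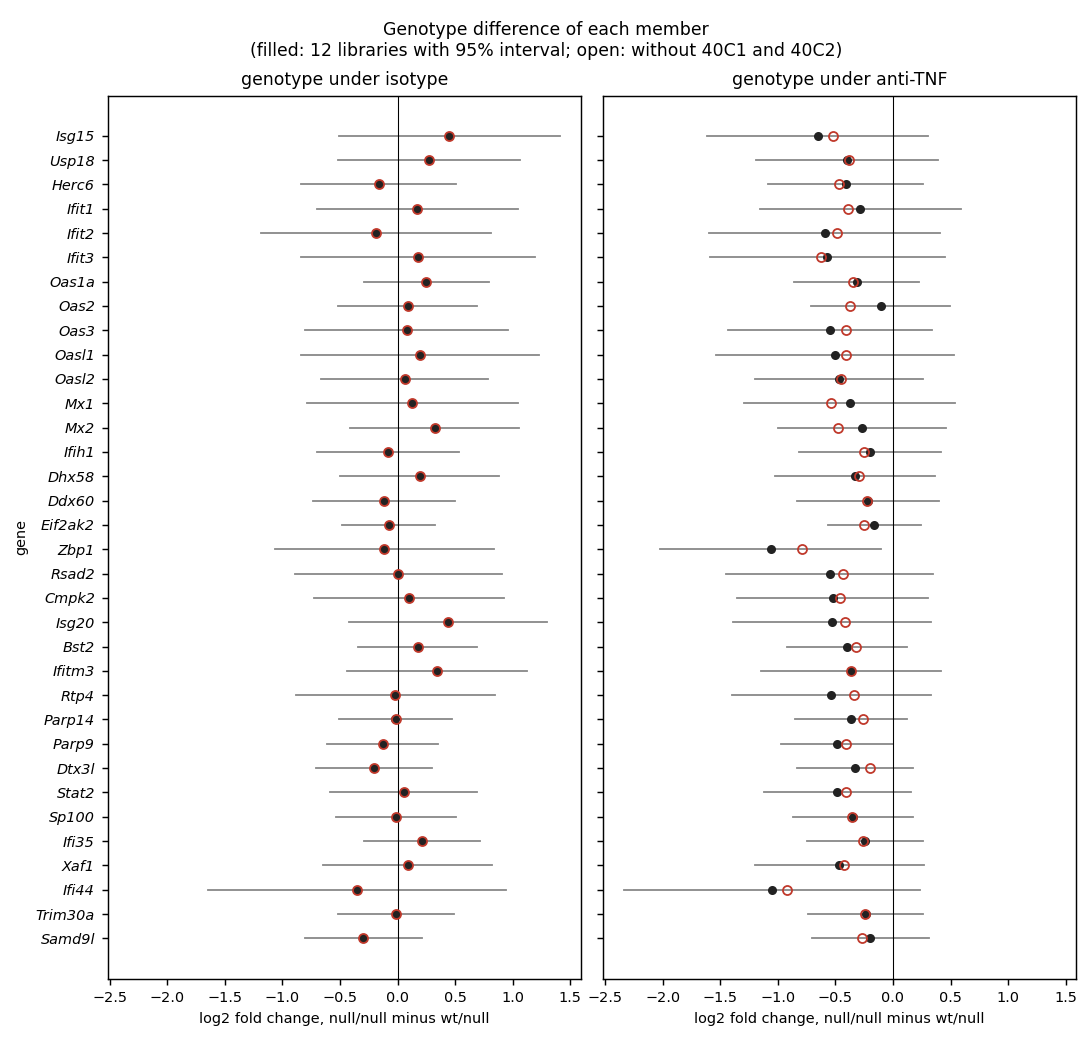
Log2 fold change of null/null over wt/null (horizontal axis) for each member (vertical axis) under isotype (left) and anti-TNF (right). Filled points are fits on 12 libraries with 95% intervals, and open circles are fits without 40C1 and 40C2. Under isotype all 34 intervals include 0, and under anti-TNF 32 of 34 do, although all 34 points lie to the left of 0.

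The intervals show what sizes these libraries could leave unseen. For genotype averaged over the antibodies the 95% interval reached a median of 0.51 log2 units to either side of the estimate, and for 1 antibody alone 0.73. With all 12 libraries, all 34 averaged intervals included 0. The lowest bound was -1.61 (Ifi44) and the highest 0.58 (Oasl1), so the libraries leave room for differences up to those sizes. No member had its 6 null/null libraries all below its 6 wt/null libraries, where 0.123% of genes did. Without 40C1 and 40C2 it was again 0 members, where 0.377% of genes did. With all 12 libraries, no member had its 3 null/null libraries all below the wt/null ones under isotype (3.65% of genes) or under anti-TNF (2.58%).

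The antibody difference, anti-TNF minus isotype, depended on the libraries that stood apart. In wt/null all 34 members were higher, with a median of 0.38, and 26 were higher, with a median of 0.09, without 40C1 and 40C2. In null/null 19 of 34 were lower, with a median of -0.06, and 33 were lower, with a median of -0.39, without them. That median was 0.20 without null/null isotype 3 and 0.15 without null/null anti-TNF 2, so its direction changed with single libraries. Averaged over genotypes 2 of 34 were lower, with a median of 0.18, and 32 were lower, with a median of -0.14, without 40C1 and 40C2. For both perturbations against neither, 16 of 34 were lower with a median of 0.00, and 34 were lower with a median of -0.27 without them. The 3 wt/null anti-TNF libraries all lay above the 3 wt/null isotype libraries for 3 of 34 members, Mx2, Isg20 and Ifitm3, where 5.71% of genes did. The dendritic cell and monocyte marker sums were highest in the same 2 libraries, and their part in these medians was not tested.

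Without 40C1 and 40C2 a few members passed an unadjusted p of 0.05, with 0 past the adjusted threshold. They were 2 for genotype under anti-TNF (1.12% of genes), and 1 each for genotype averaged (2.41%), the antibody in null/null (1.75%), the interaction (1.09%) and both against neither (1.82%). Ifi44 was the member named in 3 of these, with log2 fold changes of -0.92 for genotype under anti-TNF, -0.63 averaged and -0.82 for both against neither. The others were Sp100 for genotype under anti-TNF, Bst2 for the antibody in null/null and Mx2 for the interaction, all lower.

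Sample titles carry a number and a letter (40A, 40B, 40C, 46C), whose meaning the labels do not give, followed by a digit. Libraries that share number and letter were set side by side because 40C held the libraries with the highest levels. Each pair sets 1 library against 1 other, and the members moved together, so a count of members in a pair is not that many observations. Among anti-TNF libraries, null/null was lower than wt/null for 34 members in 40A (median -0.59), 33 in 40C (-0.49) and 31 in 46C (-0.22). Of all tested genes, 48.2%, 51.4% and 50.5% were lower in these pairs. Among isotype libraries, null/null was lower for 31 members in 40B (-0.25) and for 23 in 46C (-0.07). In 40C it was lower for 3, with a median of 0.43. Of all tested genes, 49.8% were lower in 40B, 48.7% in 46C and 49.2% in 40C. The 3 anti-TNF pairs thus all had medians below 0, and the 3 isotype pairs did not. For the antibody in wt/null, anti-TNF was higher for all 34 members in 40C (median 0.75) and 27 in 46C (0.15), and in null/null it was lower for 20 members in 40C (-0.06) and 20 in 46C (-0.06). Between 49.4% and 51.9% of all tested genes were lower in these antibody pairs.

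**Figure D4:**
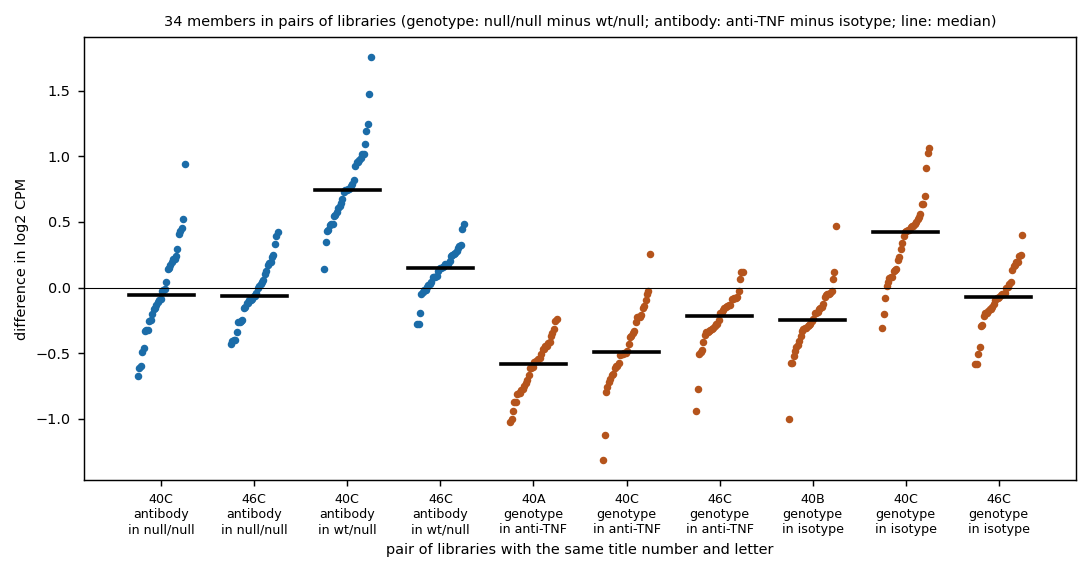
Difference in log2 CPM (vertical axis) of each of the 34 members, sorted within a pair, for the 10 pairs of libraries that share title number and letter (horizontal axis); lines are medians. The 3 genotype pairs under anti-TNF have medians of -0.59, -0.49 and -0.22, and the 3 under isotype -0.25, 0.43 and -0.07.

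With title number and letter as a block in the same edgeR fit, standard errors were smaller, 0.14 against 0.29 for Stat2 in the genotype difference under isotype. The median was -0.44 for genotype under anti-TNF, where 25 members, all lower, had an unadjusted p below 0.05 (2.78% of genes). It was -0.19 for genotype averaged, with 15 members at that level (3.62%), and -0.49 for the interaction, with 16 members (1.66%). For the antibody in wt/null it was 0.40, with 19 members, all higher (6.97%), and for the antibody averaged 0.19, with 7 members (9.91%). Genotype under isotype, the antibody in null/null and both against neither had 0 members at that level. After adjustment over all genes 0 members passed in any comparison. These counts are of genes that moved together in the same few libraries, and the labels do not say that the titles mark a batch.

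Among the genes of ISG15 conjugation, Isg15 is a ubiquitin-like protein attached to other proteins, Herc6 is the mouse ligase that attaches it, and Usp18 removes it and damps signalling at the type I receptor. Isg15 was at 38.5, 32.2 and 45.3 CPM in wt/null given isotype and at 40.3, 91.5 and 54.8 in wt/null given anti-TNF. It was at 26.5, 50.8 and 80.7 CPM in null/null given isotype and at 52.7, 23.6 and 42.5 in null/null given anti-TNF. High values came from 1 library of wt/null anti-TNF and 1 of null/null isotype, and all groups overlapped. Its genotype difference was 0.45 ± 0.43 (log2 fold change ± SE) under isotype and -0.65 ± 0.43 under anti-TNF. The anti-TNF value was -0.52 without 40C1 and 40C2 and -0.26 without 40C1 alone. The interaction was -1.10 ± 0.61, or -0.97 without both. Herc6 was at 44.4, 33.2 and 43.1 CPM in wt/null given isotype, 44.5, 66.0 and 35.6 in wt/null given anti-TNF, 32.0, 28.8 and 46.8 in null/null given isotype, and 51.9, 24.3 and 33.8 in null/null given anti-TNF. It was the member of this role with the largest averaged genotype difference, -0.29 ± 0.21. Its lowest library was null/null anti-TNF 2. Usp18 ranged from 19.4 to 61.8 CPM over the 12 libraries.

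Ifit1 binds viral RNA that lacks the cap modifications of host messages, and Ifit2 and Ifit3 are of the same family. Ifit2 was at 193, 114 and 157 CPM in wt/null given isotype and at 142, 323 and 158 in wt/null given anti-TNF. It was at 90.9, 114 and 203 CPM in null/null given isotype and at 199, 69.6 and 144 in null/null given anti-TNF. The groups overlapped, and the genotype difference was -0.18 ± 0.45 under isotype and -0.59 ± 0.45 under anti-TNF. The latter was -0.49 without 40C1 and 40C2 and -0.12 without 40C1 alone. Ifit1 ranged from 13.3 to 46.0 CPM and Ifit3 from 47.5 to 184 CPM. All 3 were lower under anti-TNF and 1 of 3 under isotype, and Ifit3 has a near-identical copy, Ifit3b, so its counts are uncertain.

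Oas enzymes make the short oligoadenylates that activate RNase L, and the Oas-like proteins Oasl1 and Oasl2 carry the same fold. Oas1a and Oas3 were the members of this role with the full set of values. Oas1a was at 76.2, 67.4 and 79.5 CPM in wt/null given isotype, 69.7, 103 and 88.8 in wt/null given anti-TNF, 59.3, 87.1 and 118 in null/null given isotype, and 85.9, 51.8 and 72.6 in null/null given anti-TNF. Oas3 was at 90.0, 74.9 and 98.9 CPM in wt/null given isotype, 67.8, 152 and 99.0 in wt/null given anti-TNF, 50.3, 88.1 and 140 in null/null given isotype, and 92.2, 45.8 and 79.7 in null/null given anti-TNF. For Oas1a the highest library was null/null isotype 3 and for Oas3 wt/null anti-TNF 2. The genotype difference of Oas3 was 0.08 ± 0.40 under isotype and -0.55 ± 0.40 under anti-TNF, and that of Oas1a 0.25 ± 0.25 and -0.31 ± 0.25. Under anti-TNF these were -0.41 and -0.35 without 40C1 and 40C2, and -0.20 and -0.18 without 40C1 alone. All 5 genes of the role were higher in null/null under isotype and lower under anti-TNF. The isotype direction rested on 1 library: without null/null isotype 3, 32 of all 34 members were lower in null/null, with a median of -0.19. Oas1a is 1 of a cluster of similar genes, so its counts may be shared with them.

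Mx GTPases trap viral nucleocapsids, Mx1 in the nucleus and Mx2 in the cytoplasm of mouse cells. Mx1 was at 70.5, 52.0 and 66.3 CPM in wt/null given isotype, 65.3, 137 and 78.6 in wt/null given anti-TNF, 47.7, 62.9 and 95.6 in null/null given isotype, and 117, 40.1 and 59.0 in null/null given anti-TNF. Mx2 was at 10.5, 7.23 and 10.9 CPM in wt/null given isotype, 11.5, 20.1 and 13.6 in wt/null given anti-TNF, 10.0, 11.3 and 14.6 in null/null given isotype, and 19.4, 7.23 and 10.8 in null/null given anti-TNF. Mx2 in wt/null had the smallest unadjusted p of any member for the antibody, above 0.05. Its 2 groups did not overlap, with anti-TNF higher, as for 5.71% of all tested genes. The difference was 0.65 ± 0.33 with all libraries and 0.39 without 40C1 and 40C2. Both genes lay higher in 40C1 and 40C2 than in the other libraries.

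Of the sensors, Ifih1 (MDA5) and Dhx58 (LGP2) bind double-stranded viral RNA, Ddx60 is a related helicase, Eif2ak2 (PKR) halts translation, and Zbp1 detects left-handed nucleic acid and triggers cell death. Zbp1 was at 73.8, 79.7 and 76.2 CPM in wt/null given isotype and at 76.0, 205 and 86.5 in wt/null given anti-TNF. It was at 39.8, 68.2 and 104 CPM in null/null given isotype and at 82.3, 43.3 and 50.6 in null/null given anti-TNF. The wt/null isotype libraries lay close together, and the mean of wt/null anti-TNF rested on 1 library. The genotype difference under anti-TNF was -1.06 ± 0.43 (adjusted p = 0.9997 by edgeR), the lowest unadjusted p of any member with all libraries. It was -0.79 without 40C1 and 40C2, -0.47 without wt/null anti-TNF 2 alone, and -0.12 ± 0.43 under isotype. Eif2ak2 was the steadiest member, from 40.8 to 74.2 CPM, while Ifih1 ranged from 54.9 to 124, Dhx58 from 43.4 to 111 and Ddx60 from 22.0 to 54.9 CPM. Dhx58 overlaps Dhx58os on the other strand, and the strand setting of the counts is not given.

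Rsad2 (viperin) makes a chain-terminating nucleotide, Cmpk2 is its neighbouring gene and a nucleotide kinase, and Isg20 is an exonuclease that degrades RNA. Rsad2 was at 93.7, 57.7 and 89.1 CPM in wt/null given isotype, 83.6, 189 and 94.4 in wt/null given anti-TNF, 56.7, 76.5 and 108 in null/null given isotype, and 119, 47.9 and 83.8 in null/null given anti-TNF. Isg20 was at 11.8, 9.88 and 11.7 CPM in wt/null given isotype, 13.1, 23.9 and 13.3 in wt/null given anti-TNF, 7.20, 13.8 and 24.1 in null/null given isotype, and 15.1, 8.83 and 10.9 in null/null given anti-TNF. Isg20 in wt/null did not overlap between antibodies, with anti-TNF higher, as for 5.71% of all tested genes. Its difference was 0.59 ± 0.39, or 0.25 without 40C1 and 40C2. Rsad2 had a genotype difference of 0.01 ± 0.40 under isotype and -0.55 ± 0.40 under anti-TNF. The latter was -0.43 without 40C1 and 40C2 and -0.09 without 40C1 alone. Cmpk2 ranged from 24.0 to 83.5 CPM.

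At the membrane, Bst2 (tetherin) holds budding virions, Ifitm3 blocks fusion in endosomes, and Rtp4 is a chaperone with antiviral activity. Bst2 was at 224, 212 and 174 CPM in wt/null given isotype, 214, 357 and 218 in wt/null given anti-TNF, 173, 231 and 283 in null/null given isotype, and 253, 172 and 174 in null/null given anti-TNF. Ifitm3 was at 219, 225 and 240 CPM in wt/null given isotype, 245, 499 and 288 in wt/null given anti-TNF, 182, 274 and 411 in null/null given isotype, and 385, 208 and 207 in null/null given anti-TNF. For Ifitm3 the wt/null groups did not overlap between antibodies, with anti-TNF higher, as for 5.71% of all tested genes. The difference was 0.59 ± 0.35, or 0.23 without 40C1 and 40C2. Rtp4 was at 63.6, 54.7 and 64.2 CPM in wt/null given isotype, 58.9, 136 and 71.1 in wt/null given anti-TNF, 38.0, 56.7 and 85.3 in null/null given isotype, and 80.2, 35.5 and 67.3 in null/null given anti-TNF. Its genotype difference under anti-TNF was -0.54 ± 0.39, and that of Bst2 -0.40 ± 0.24. They were -0.34 and -0.32 without 40C1 and 40C2, and -0.09 and -0.11 without 40C1 alone. Per kilobase of exon, Ifitm3 and Bst2 had the highest median levels of the 34 members, 358 and 239 CPM per kb, followed by Isg15 at 58.1, Ifit3 at 46.3 and Oas1a at 41.3, while Mx2 at 3.07 and Ifi44 at 1.70 were lowest. Rtp4 overlaps Masp1 on the other strand in the annotation used.

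Parp9 and Dtx3l form a complex of an ADP-ribosyltransferase and a ubiquitin ligase, and Parp14 is a related ADP-ribosyltransferase. Parp9 was at 80.1, 61.8 and 71.1 CPM in wt/null given isotype and at 70.3, 112 and 73.3 in wt/null given anti-TNF. It was at 53.9, 57.9 and 82.6 CPM in null/null given isotype and at 74.0, 48.3 and 60.4 in null/null given anti-TNF. The groups overlapped, and the genotype difference under anti-TNF was -0.48 ± 0.22 (adjusted p = 0.9997 by edgeR), the other member with an unadjusted p below 0.05. It was -0.40 without 40C1 and 40C2, -0.24 without 40C1 alone, and -0.13 ± 0.22 under isotype. Dtx3l was at 79.4, 76.5 and 83.2 CPM in wt/null given isotype, 71.5, 133 and 82.1 in wt/null given anti-TNF, 59.3, 68.4 and 80.3 in null/null given isotype, and 93.4, 56.3 and 77.8 in null/null given anti-TNF. Parp14 was at 239, 227 and 231 CPM in wt/null given isotype, 212, 364 and 236 in wt/null given anti-TNF, 183, 224 and 281 in null/null given isotype, and 257, 159 and 215 in null/null given anti-TNF. All 3 genes of the role were lower in null/null under both antibodies, with medians of -0.13 under isotype and -0.37 under anti-TNF. Parp9 (chr16:35938470-35972621, plus, GRCm38) and Dtx3l (chr16:35926515-35939027, minus) overlap at their starts, and since the strand setting of the counts is not given, their reads may not be fully separate.

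Stat2 is the subunit of ISGF3 specific to type I and III interferon signalling, Sp100 a nuclear body protein and Ifi35 an interferon-induced regulator. Stat2 was at 127, 118 and 129 CPM in wt/null given isotype, 124, 246 and 149 in wt/null given anti-TNF, 99.6, 121 and 167 in null/null given isotype, and 166, 87.5 and 118 in null/null given anti-TNF. Within wt/null isotype its libraries lay close together, and each other group held 1 library well above the other two. The genotype difference was 0.05 ± 0.29 under isotype and -0.48 ± 0.29 under anti-TNF. The latter was -0.41 without 40C1 and 40C2 and -0.14 without 40C1 alone. Sp100 ranged from 94.7 to 205 CPM and Ifi35 from 28.2 to 57.2 CPM.

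Of the remaining antiviral genes, Xaf1 promotes cell death, Trim30a restrains inflammatory signalling, Samd9l restricts poxviruses and Ifi44 is induced with the others. Ifi44 was at 12.5, 7.40 and 13.6 CPM in wt/null given isotype and at 10.8, 42.4 and 13.2 in wt/null given anti-TNF. It was at 7.16, 9.06 and 10.1 CPM in null/null given isotype and at 19.4, 5.83 and 6.83 in null/null given anti-TNF. The libraries 40C1 and 40C2 stood far above the rest of their groups. The genotype difference was -0.35 ± 0.58 under isotype, -1.05 ± 0.58 under anti-TNF and -0.70 ± 0.41 averaged. The anti-TNF value was -0.92 without 40C1 and 40C2 and -0.16 without 40C1 alone, a fit that keeps the high 40C2 in null/null. Samd9l was the member whose interaction was above 0 (0.10 ± 0.33) while the other 33 were below it, and it ranged from 50.1 to 107 CPM. Xaf1 ranged from 17.0 to 49.8 CPM and Trim30a, which has similar neighbours in its gene cluster, from 94.2 to 208 CPM.

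**Figure D5:**
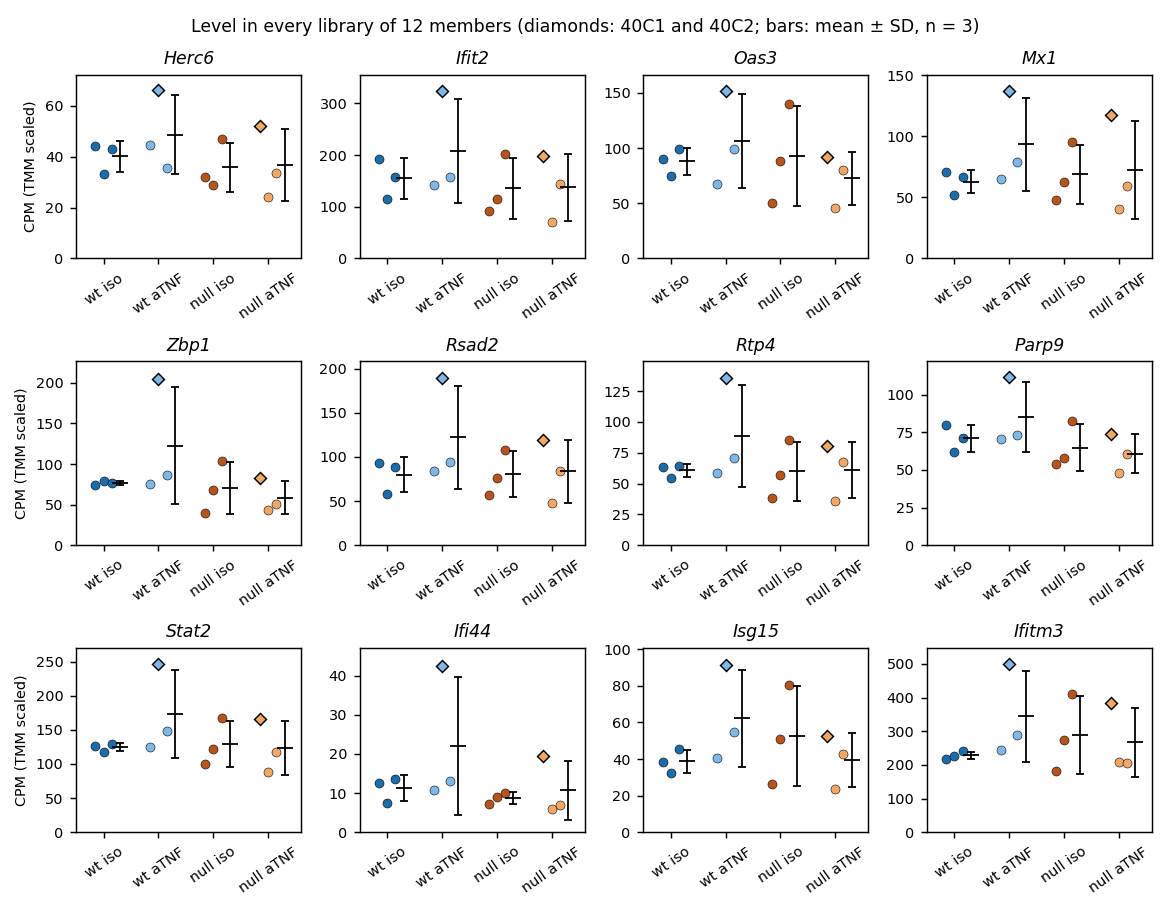
CPM (vertical axes, from 0) in every library of 12 members by group (horizontal axes: wt stands for wt/null, null for null/null, iso for isotype, aTNF for anti-TNF); bars give mean ± SD, n = 3, and diamonds are 40C1 and 40C2. In wt/null anti-TNF the diamond lies above both circles in each panel, such as 205 against 76.0 and 86.5 CPM for Zbp1.

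Upstream of the members, message for the type I ligands was nearly absent. Of 18 type I interferon genes, 15 had 0 counts in all 12 libraries. Ifnb1, interferon beta, had 15 counts (0.614 CPM) in wt/null anti-TNF 2 and at most 0.116 CPM in any other library. Ifng, the ligand of the targeted receptor, was at 2.91 CPM in wt/null anti-TNF 2, at 1.48 in null/null anti-TNF 1 and at no more than 0.427 CPM elsewhere. Both of its high libraries are those that stand apart, where T and NK cell markers summed to 246 and 154 CPM against 102 to 209 in the others. The library in which 30 members peaked was thus also the one with the most Ifnb1 and Ifng, and the part of either ligand in the members' levels was not tested.

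Of 14 genes for interferon receptors and JAK-STAT signalling, 1 passed the adjusted threshold in genotype comparisons, Ifngr1 itself (-1.39 under isotype and -1.33 under anti-TNF). Ifnar1 stayed at 191 to 249 CPM in all libraries, and Ifnar2 at 162 to 186 CPM outside 40C1 (264) and 40C2 (230). Irf7, which amplifies type I interferon production, was at 159 to 440 CPM outside those libraries, at 860 CPM in 40C1 and at 524 CPM in 40C2. Irf9, the DNA-binding part of ISGF3, was at 62.3 to 85.7 CPM outside them and at 129 and 96.9 CPM in them. Irf1, a transcription factor induced by interferon gamma, had a genotype difference of -0.78 ± 0.35 under anti-TNF, with an unadjusted p below 0.05 (adjusted p = 0.9997 by edgeR). Its level was 359 CPM in 40C1 and 76.9 to 151 CPM in the other 11 libraries, and without 40C1 and 40C2 the difference was -0.34, with an unadjusted p above 0.05.

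The Gbp and IRG genes give a yardstick from the interferon gamma side. Under isotype the median genotype difference was -0.82 over 9 Gbp genes and -0.41 over 12 IRG genes, beside 0.07 over the 34 members. Under anti-TNF the medians were -1.60 and -1.11 beside -0.40. At an unadjusted p below 0.05 under anti-TNF there were 7 of 9 Gbp, 9 of 12 IRG and 2 of 34 antiviral genes, where 1.98% of all genes passed. Without 40C1 and 40C2 there were 5, 6 and 2, where 1.12% passed. Under isotype there were 0, 1 and 0 with all libraries (1.80% of all genes). Without 40C1 and 40C2 the medians were -0.82, -0.41 and 0.07 under isotype and -0.78, -0.75 and -0.40 under anti-TNF. The lists were compared side by side, with no test of the difference between them, and some members respond to interferon gamma too.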

How the data were processed

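Messenger RNA was measured in 12 libraries, 3 in each of 4 groups of Ifngr1 genotype and antibody, on day 5 after injury. The authors deposited whole-number counts per gene symbol, not normalized. RNA was made into stranded mRNA libraries and sequenced in pairs, per the labels' protocols. Per the submitters' processing notes, bcl2fastq 2.20, STAR, Bowtie and the build mm10 were used, in roles that are not stated. The counting tool, its strand setting and the annotation are not given in the sources used here. Columns were matched to samples by title, with 0 left over, and replicates were numbered in listing order, so a number pairs nothing.

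From the counts, genes were kept by filterByExpr, which left 12981. They were scaled by TMM and fitted with robust quasi-likelihood models on 4 group means in edgeR 4.0.16 (R 4.3.3), with two-sided tests, 8 comparisons and Benjamini-Hochberg adjustment over all genes within each. Log2 CPM used a prior count of 2. Depth was 23.2 to 29.9 M counts (M, mega), and each member had at least 150 counts in every library. The code was tested on simulated data. Alternatives were DESeq2 1.42.0, limma 3.58.1 (voom with sample weights), relative log expression scaling, 2 other filters, title blocks, leaving out 40C1 and 40C2, and leaving out each library. Gene positions and promoters came from RefSeq, and strands, exon lengths and gene overlaps from GENCODE M21.

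Members, lists and tests were chosen with earlier results of these data known, and no test of a list was made. Members named in full were the largest averaged genotype difference in each of 10 role groups and the smallest p-values, 18 in all. Of the pathway lists, ligands, receptor chains, Irf7, Irf9 and genes at an unadjusted p below 0.05 were named, apart from a result that is not reported here.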

Additional observations from a re-analysis of the deposited data

How the results depend on the processing

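In every alternative run, 0 of 34 members passed the adjusted threshold in each of the 8 comparisons. Changing the software to DESeq2, the scaling or the filter left the 8 medians within 0.01 of those reported. With sample weights in voom the medians were 0.12, -0.44 and -0.16 for genotype under isotype, under anti-TNF and averaged, 0.25, -0.27 and -0.01 for the antibody in wt/null, in null/null and averaged, -0.60 for the interaction and -0.15 for both against neither. The 12 fits that each left out 1 library gave medians from -0.19 to 0.24 for genotype under isotype and from -0.73 to -0.09 under anti-TNF. For genotype averaged they ran from -0.32 to -0.01, and for the interaction from -0.79 to -0.18. The antibody medians ran from 0.09 to 0.56 in wt/null, from -0.39 to 0.20 in null/null and from 0.00 to 0.30 averaged, and both against neither from -0.27 to 0.23. With title number alone as a block the medians stayed within 0.02 of those reported. Replicate numbers follow listing order and pair nothing, so the only paired fits were those with title blocks, whose meaning is not stated. Each member had at least 150 counts in every library.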

Other observations

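Genes for the receptors and adaptors that sense nucleic acid upstream of interferon, such as Ddx58 (RIG-I), Mavs, Tlr7 and Myd88, were measured as a list of 10. In the genotype comparisons 0 of 10 passed the adjusted threshold of edgeR's test, and 0 had an unadjusted p below 0.05. Their median log2 fold change of null/null over wt/null was -0.03 under isotype and -0.09 under anti-TNF, with single genes from -0.29 to 0.09 and from -0.20 to 0.08. For the antibody averaged over genotypes the median was 0.09, and 1 gene, Tlr3, which binds double-stranded RNA in endosomes, had an unadjusted p below 0.05 (0.34 ± 0.15, log2 fold change ± SE, adjusted p = 0.660 by edgeR). Without 40C1 and 40C2 the difference of Tlr3 was 0.13, with an unadjusted p above 0.05, and the list's medians were -0.03 under isotype, -0.05 under anti-TNF and -0.01 for the antibody averaged.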
